A study of Mus musculus with 550 samples.

Results

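The Cyp2 and Cyp3 families of cytochrome P450 genes were followed across mouse organs after a single dose of fumarates. Members were all genes of the array's annotation whose symbol is Cyp2 or Cyp3 followed by a letter and a number, and which had a probe set assigned to that gene alone. Of 17097 genes tested, 35 qualified, 29 of them Cyp2 genes and 6 Cyp3 genes, on 40 probe sets. Where a gene had several probe sets, the one with the highest mean in an organ stood for it there. By subfamily there were 2 Cyp2a, 4 Cyp2b, 8 Cyp2c, 6 Cyp2d, 4 Cyp2j and 6 Cyp3a genes, and 1 gene each of Cyp2e, Cyp2f, Cyp2g, Cyp2r and Cyp2u.

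Cytochrome P450 enzymes are heme proteins of the endoplasmic reticulum that insert an oxygen atom into their substrates, with electrons passed on by cytochrome P450 reductase and cytochrome b5. The Cyp2 and Cyp3 families oxidize most drugs and many dietary chemicals, above all in the liver, and several also act on steroids, fatty acids or vitamin D. Many are switched on by foreign chemicals through nuclear receptors such as CAR (gene Nr1i3) and PXR (gene Nr1i2), and in kidney and intestine each organ makes its own subset.

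C57Bl/6 mice received 1 dose and organs were taken 6 or 12 h later. The vehicle group was given 0.8% hydroxypropyl methylcellulose. DMF, dimethyl fumarate, carries methyl esters on both acid groups of fumaric acid, and was given at 100 or 179.2 mg/kg. MEF, monoethyl fumarate, carries an ethyl ester on a single acid group, and was given at 79.2 mg/kg as a mixture of its calcium, magnesium and zinc salts. A further group received DMF at 100 mg/kg together with MEF salts at 79.2 mg/kg, per the sample titles and the design text. These groups are written DMF 100, DMF 179.2, MEF and DMF+MEF below. Untreated (naive) mice were sampled at 12 h. Age and sex of the mice were not given in the sources used here. Separate animal numbers mark the samples, and p-values measure the spread between these samples.

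RNA of 7 organs was measured on 550 arrays in 77 groups: kidney (77 arrays), jejunum (76), mesenteric lymph node (88), inguinal lymph node (73), spleen (72), brain (86) and whole blood (78). Kidney groups held 7 vehicle, 8 DMF 100, 8 DMF 179.2, 8 MEF and 7 DMF+MEF arrays at 6 h, and 8, 6, 8, 7 and 4 at 12 h with 6 naive arrays. Jejunum groups held 8, 4, 8, 5 and 5 arrays in that order at 6 h, and 8, 8, 8, 7 and 8 at 12 h with 7 naive arrays. Levels are log2 values, and each organ and time was normalized apart. Groups were therefore compared in level only within 1 organ and time. Mean levels of an organ, which chose probe sets and ranked members against the median gene, pool both times. The ranges of liver markers pool both times too. Changes are log2 differences from the vehicle arrays of the same organ and time, given with the standard error (SE) of limma's moderated model, and a gene was called when its Benjamini-Hochberg adjusted p over all genes was below 0.05. All dosed groups of an organ and time share the same vehicle arrays. Of the markers, 4 of 5 measured ones of the proximal tubule were above the kidney's median gene, as were 6 of 6 measured enterocyte markers in the jejunum. RNA comes from whole organs, so fewer cells of a type and less RNA per cell cannot be told apart.

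The promoters of the 6 genes on which the results turn are shown because the kidney account turns on 5 of them and the jejunum account on Cyp2b10. RefSeq's GRCm38.p6 table held promoters for 29 of the 35 genes, each 300 bases long, from 250 bases before the transcription start to 50 after it. Capitals mark matches, on either strand, of the TATA box (TATAAA), the nuclear receptor half-site (AGGTCA) and the core of the antioxidant response element (TGACNNNGC), to which NRF2 binds. Cyp2a5 lies at chr7:26835089-26835388 (plus strand), Cyp2b10 at chr7:25897408-25897707 (plus), Cyp2r1 at chr7:114562923-114563222 (minus), Cyp2j5 at chr4:96664070-96664369 (minus), Cyp2j6 at chr4:96553602-96553901 (minus) and Cyp2j9 at chr4:96591436-96591735 (minus).
Cyp2a5: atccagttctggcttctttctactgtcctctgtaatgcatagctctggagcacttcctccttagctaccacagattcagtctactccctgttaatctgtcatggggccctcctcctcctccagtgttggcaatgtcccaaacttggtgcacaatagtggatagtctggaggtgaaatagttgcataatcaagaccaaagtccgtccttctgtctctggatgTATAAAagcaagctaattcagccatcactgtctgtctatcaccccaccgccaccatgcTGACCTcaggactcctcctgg
Cyp2r1: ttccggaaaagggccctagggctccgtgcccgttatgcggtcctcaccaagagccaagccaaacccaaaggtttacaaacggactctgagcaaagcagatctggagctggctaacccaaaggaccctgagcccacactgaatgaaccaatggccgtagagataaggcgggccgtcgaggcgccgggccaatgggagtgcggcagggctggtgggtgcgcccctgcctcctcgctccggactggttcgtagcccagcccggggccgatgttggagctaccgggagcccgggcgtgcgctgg
Cyp2j5: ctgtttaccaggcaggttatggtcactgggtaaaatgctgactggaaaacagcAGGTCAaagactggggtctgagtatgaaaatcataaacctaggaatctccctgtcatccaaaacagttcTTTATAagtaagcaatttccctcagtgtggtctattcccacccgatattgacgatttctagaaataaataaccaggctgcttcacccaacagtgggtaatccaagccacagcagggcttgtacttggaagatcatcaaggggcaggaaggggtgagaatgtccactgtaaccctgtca
Cyp2j6: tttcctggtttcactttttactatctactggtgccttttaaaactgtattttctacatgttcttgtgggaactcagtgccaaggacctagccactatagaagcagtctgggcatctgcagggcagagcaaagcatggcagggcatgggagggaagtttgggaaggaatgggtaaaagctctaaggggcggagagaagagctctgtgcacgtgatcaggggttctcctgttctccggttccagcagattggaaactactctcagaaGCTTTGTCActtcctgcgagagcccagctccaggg
Cyp2j9: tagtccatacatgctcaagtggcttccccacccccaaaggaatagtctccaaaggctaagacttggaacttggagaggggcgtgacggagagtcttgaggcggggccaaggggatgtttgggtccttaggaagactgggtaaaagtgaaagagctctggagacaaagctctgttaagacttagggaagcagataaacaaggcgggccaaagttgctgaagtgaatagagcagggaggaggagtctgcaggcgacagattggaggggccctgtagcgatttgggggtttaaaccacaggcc
Cyp2b10: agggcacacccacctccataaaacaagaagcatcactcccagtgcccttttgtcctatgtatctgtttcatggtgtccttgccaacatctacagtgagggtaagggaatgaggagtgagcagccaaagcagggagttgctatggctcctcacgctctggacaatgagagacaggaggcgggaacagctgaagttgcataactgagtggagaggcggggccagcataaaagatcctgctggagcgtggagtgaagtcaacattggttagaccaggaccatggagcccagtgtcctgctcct

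In these windows the TATA box letters began at -29 in Cyp2a5 and, on the minus strand, at -128 in Cyp2j5, counted from the transcription start. The half-site letters began at -197 in Cyp2j5 and, on the minus strand, at 30 in Cyp2a5. Only Cyp2j6, of the 29 genes, held the antioxidant response core, on the minus strand at 16, against 12.4% of 32851 promoters of the same length. The half-site was in 12 of the 29 genes (16.3% of all promoters) and the TATA box in 16 of 29 (13.6%). The core GCGTG, bound by the dioxin receptor, was in Cyp2b10, Cyp2j9, Cyp2r1 and Cyp2j13 (32.4% of all promoters), and the E-box CACGTG in Cyp2j6 (7.15%). These matches describe letters in a short window and are not binding sites.

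Cyp2 and Cyp3 genes sorted by organ. The mean signal was above the organ's median gene for 10 of 35 members in jejunum, 9 in kidney, 3 in brain, 2 in each lymph node, 1 in whole blood and 0 in spleen. The kidney set was Cyp2j5, Cyp2a5, Cyp2d26, Cyp2c23, Cyp2e1, Cyp2j9, Cyp2j6, Cyp2d22 and Cyp2d9. The jejunum set was Cyp3a13, Cyp3a25, Cyp2d26, Cyp3a11, Cyp2b10, Cyp2j6, Cyp2c55, Cyp2d22, Cyp2e1 and Cyp2j9, so Cyp3a11, Cyp3a13, Cyp3a25 and Cyp2b10 were above the median in intestine and not in kidney, while Cyp2a5, Cyp2j5 and Cyp2c23 were below the median there. Cyp2e1, the ethanol-oxidizing P450, averaged 11.10 in mesenteric lymph node and 7.71 in inguinal lymph node, organs that were normalized apart. Cyp2j9, an arachidonic acid P450 known from brain, averaged 8.75 in brain. Of all members, 21 were above the median in 0 organs and 8 in 1 organ. In kidney 20 members and in jejunum 21 had a mean below 2.5, close to the lowest value deposited, and 16 and 20 members sat at that lowest value on at least as many arrays as above it. Probe sets differ in affinity, so these levels give no order of transcript number between genes.

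**Figure D1:**
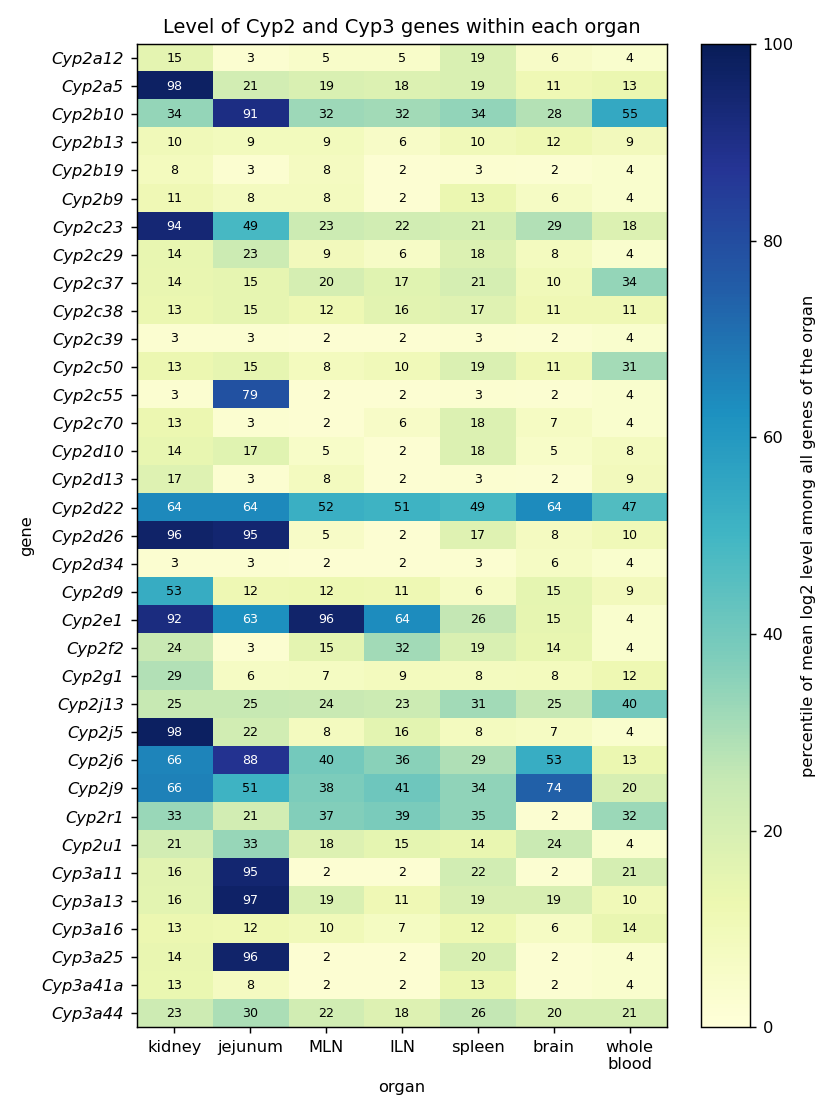
Percentile of each Cyp2 and Cyp3 gene's mean log2 level among all 17097 genes of an organ (rows, genes; columns, organs; darker, higher). Dark cells gather in the kidney and jejunum columns, with Cyp3a11, Cyp3a13 and Cyp3a25 high in jejunum and Cyp2a5, Cyp2j5 and Cyp2c23 high in kidney.

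In kidney a small set of Cyp2 genes responded and no Cyp3 gene did. Members called against vehicle at 6 h numbered 2 of 35 with DMF 100 (4.07% of all genes were called, 2.25% higher), 5 with DMF 179.2 (25%, 15% higher), 3 with MEF (5.9%, 2.91% higher) and 4 with DMF+MEF (13.2%, 6.25% higher), and each was higher. At 12 h DMF 100 gave 1 member, higher (1.38% of all genes called, 0.766% higher). DMF 179.2 gave 4 higher and 1 lower (7.25% of all genes called, 4.54% higher and 2.71% lower). MEF gave 2 higher and 1 lower (17.5% of all genes called, 7.04% higher and 10.5% lower), and DMF+MEF 4 higher and 1 lower (11% of all genes called, 5.42% higher and 5.6% lower). Cyp2j5 was the lower member each time. As shares of the members, 5.71%, 14.3%, 8.57% and 11.4% were called at 6 h and 2.86%, 14.3%, 8.57% and 14.3% at 12 h, below the share of all genes with DMF 179.2 and DMF+MEF at 6 h and with MEF at 12 h. Over both times and all dosed groups 9 members were called at least once in kidney, a smaller share than the 44.1% of all genes. They were Cyp2a5, Cyp2b19, Cyp2c23, Cyp2d22, Cyp2d9, Cyp2j5, Cyp2j6, Cyp2j9 and Cyp2r1. In kidney 20 of the 35 members averaged below 2.5, close to the lowest deposited value. Of the 9 members above the kidney's median, 1, 4, 2 and 3 were called higher at 6 h, in the same order of groups. At 12 h 1, 3, 2 and 2 of them were called higher and 0, 1, 1 and 1 lower. The shares of all genes given here count dim genes as well. Among the 9 members above the kidney's median, the median change was 0.13, 0.22, 0.03 and 0.06 at 6 h and 0.04, 0.15, -0.09 and 0.07 at 12 h with DMF 100, DMF 179.2, MEF and DMF+MEF.

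**Figure D2:**
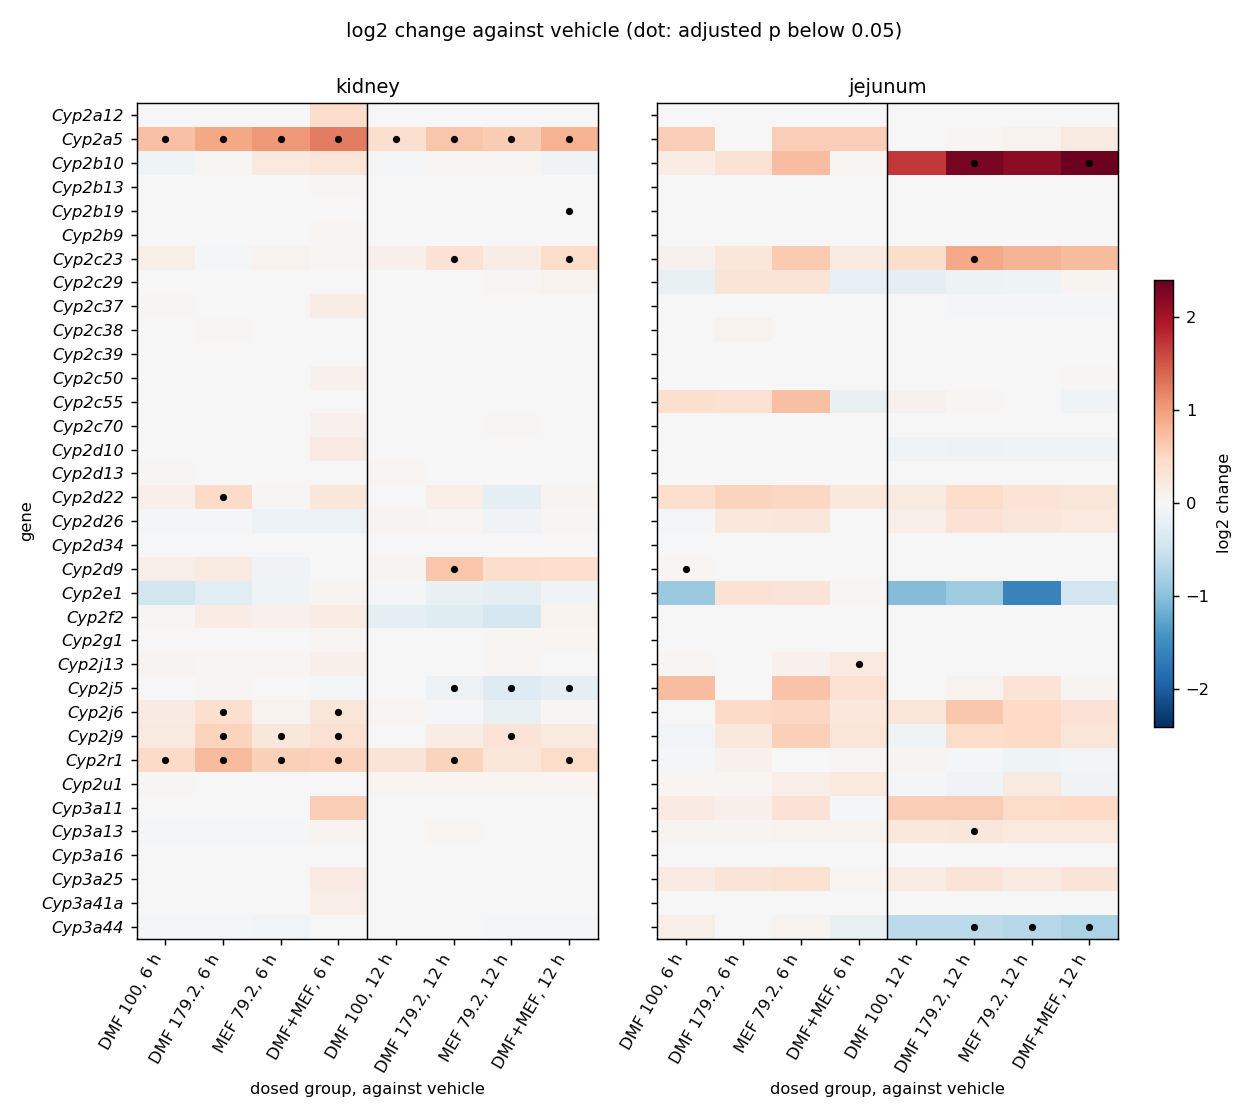
Log2 change against vehicle of all 35 Cyp2 and Cyp3 genes (rows) in each dosed group (columns, 6 h then 12 h) of kidney and jejunum; red is higher, blue lower, and a dot marks an adjusted p below 0.05. In kidney Cyp2a5 carries a dot in all 8 columns, and in jejunum the strongest colours are those of Cyp2b10 at 12 h.

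Cyp2a5 was the member that rose with every treatment in kidney. It encodes the mouse coumarin 7-hydroxylase, related to human CYP2A6. At 6 h its level ran from 11.24 to 11.69 (median 11.47) on the 7 vehicle arrays, and from 11.98 to 12.37 (median 12.12) on the 8 DMF 100 arrays. The range was 12.03 to 12.50 (median 12.41) with DMF 179.2, 12.30 to 12.73 (median 12.48) with MEF and 12.42 to 12.87 (median 12.68) with DMF+MEF. No dosed array overlapped a vehicle array at 6 h. The changes were 0.70 ± 0.08 (SE; limma adjusted p = 6.82e-11), 0.93 ± 0.08 (4.45e-16), 1.05 ± 0.08 (2.41e-18) and 1.23 ± 0.08 (2.45e-21), or 1.63-, 1.9-, 2.07- and 2.35-fold.

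At 12 h Cyp2a5 ran from 10.59 to 10.97 (median 10.76) on the 8 vehicle arrays and from 10.73 to 11.07 (median 10.92) on the 6 naive arrays. With DMF 100 it ran from 10.90 to 11.36 (median 11.19), with DMF 179.2 from 11.23 to 11.58 (median 11.42) and with MEF from 11.18 to 11.62 (median 11.33). The 4 DMF+MEF arrays were at 11.55, 11.60, 11.41 and 11.78. All DMF 179.2, MEF and DMF+MEF arrays were above all vehicle arrays, while DMF 100 overlapped them. Changes were 0.39 ± 0.08 (limma adjusted p = 0.00189), 0.66 ± 0.07 (1.56e-10), 0.60 ± 0.08 (1.08e-08) and 0.83 ± 0.09 (4.5e-11). Vehicle and naive arrays did not pass the test for Cyp2a5 (-0.16 ± 0.08, adjusted p = 0.0967). The DMF 100 call at 12 h was lost when only the DMF 100 and vehicle arrays were fitted (adjusted p = 0.0572).

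The animals are numbered, and their place within successive runs of 12 numbers was set beside the changes. Where dosed and vehicle arrays shared spans of 4 places, Cyp2a5 at 6 h changed by 0.85 (adjusted p = 0.0616) on 4 DMF 100 and 4 vehicle arrays and by 0.79 (0.0629) on 4 DMF 179.2 and 3 vehicle arrays. The values were 1.04 (2.84e-06) on 8 MEF and 7 vehicle arrays and 1.26 (0.0189) on 3 DMF+MEF and 4 vehicle arrays. At 12 h they were 0.56 (0.389) on 2 DMF 100 and 4 vehicle arrays, 0.57 (0.0923) on 4 and 4 with DMF 179.2, and 0.59 (0.000168) on 7 and 8 with MEF. Within places the Cyp2a5 change was larger with DMF 100 at both times, smaller with DMF 179.2 at both times, and close to that of all arrays with MEF and with DMF+MEF at 6 h. The calls with DMF 100 and DMF 179.2 were lost there, on 4 or fewer dosed arrays, and those with MEF and, on 3 dosed arrays, DMF+MEF were kept. The Cyp2a5 probe set is of a design that related transcripts can share, and the near-identical Cyp2a4 had no probe set of its own, so signal from the pair cannot be told apart.

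Cyp2a5 was also compared between dosed groups of the same time. At 6 h DMF 179.2 was above DMF 100 by 0.23 ± 0.07 (limma adjusted p = 0.0356), DMF+MEF above DMF 100 by 0.53 ± 0.08 (3.06e-06) and DMF+MEF above DMF 179.2 by 0.31 ± 0.08 (0.00295). DMF 179.2 and DMF+MEF have the same total mass of dosed compound. At 12 h DMF+MEF was above DMF 100 by 0.44 ± 0.09 (0.00189), a call lost when only both groups were fitted (0.152). DMF 179.2 and DMF 100 differed by 0.27 at 12 h with a 95% interval of 0.11 to 0.43 (adjusted p = 0.105), and DMF+MEF and DMF 179.2 by 0.17 with an interval of -0.01 to 0.35 (0.675). MEF and DMF were given alone only at unequal doses, so their changes (1.05 with MEF 79.2 and 0.70 with DMF 100 at 6 h) stand side by side without a test. Those are 3 pairs at each of 2 times, with p-values adjusted over all genes within each pair.

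Across all members, kidney pairs at 6 h called 2 of 35 for DMF 179.2 against DMF 100 (9.15% of all genes), 1 for DMF+MEF against DMF 100 (1.63%) and 1 for DMF+MEF against DMF 179.2 (13.2%). Beside Cyp2a5, Cyp2j9 was higher with DMF 179.2 than with DMF 100 by 0.32 ± 0.08 (limma adjusted p = 0.00408). At 12 h 0 members were called between the DMF doses by limma (0.55% of all genes), where 4 had an unadjusted p below 0.05. For DMF+MEF against DMF 100 at 12 h 4 were called (4.26%): Cyp2a5, Cyp2c23, Cyp2j5 and Cyp2b19. Cyp2c23 was higher by 0.32 ± 0.09 (adjusted p = 0.0231) and Cyp2j5 lower, at -0.25 ± 0.06 (0.00519). When only the DMF+MEF and DMF 100 arrays were fitted, limma called 0 of the 4, with adjusted p of 0.152 for Cyp2a5, 0.183 for Cyp2c23, 0.175 for Cyp2j5 and 0.468 for Cyp2b19, while 3 of them had an unadjusted p below 0.05. Without DMF+MEF replicate 35, 2 of the dosed-pair calls at 12 h were left. Cyp2b19, an epidermal P450, was the 1 call of DMF+MEF against DMF 179.2 (0.433%), and it sat at the lowest deposited value on 74 of 77 kidney arrays. At 12 h 2 of the 4 DMF+MEF arrays of Cyp2b19 were above all vehicle arrays, the higher at 2.27 beside a lowest value of 2.23, and its change against vehicle was 0.02 (adjusted p = 0.000109).

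**Figure D3:**
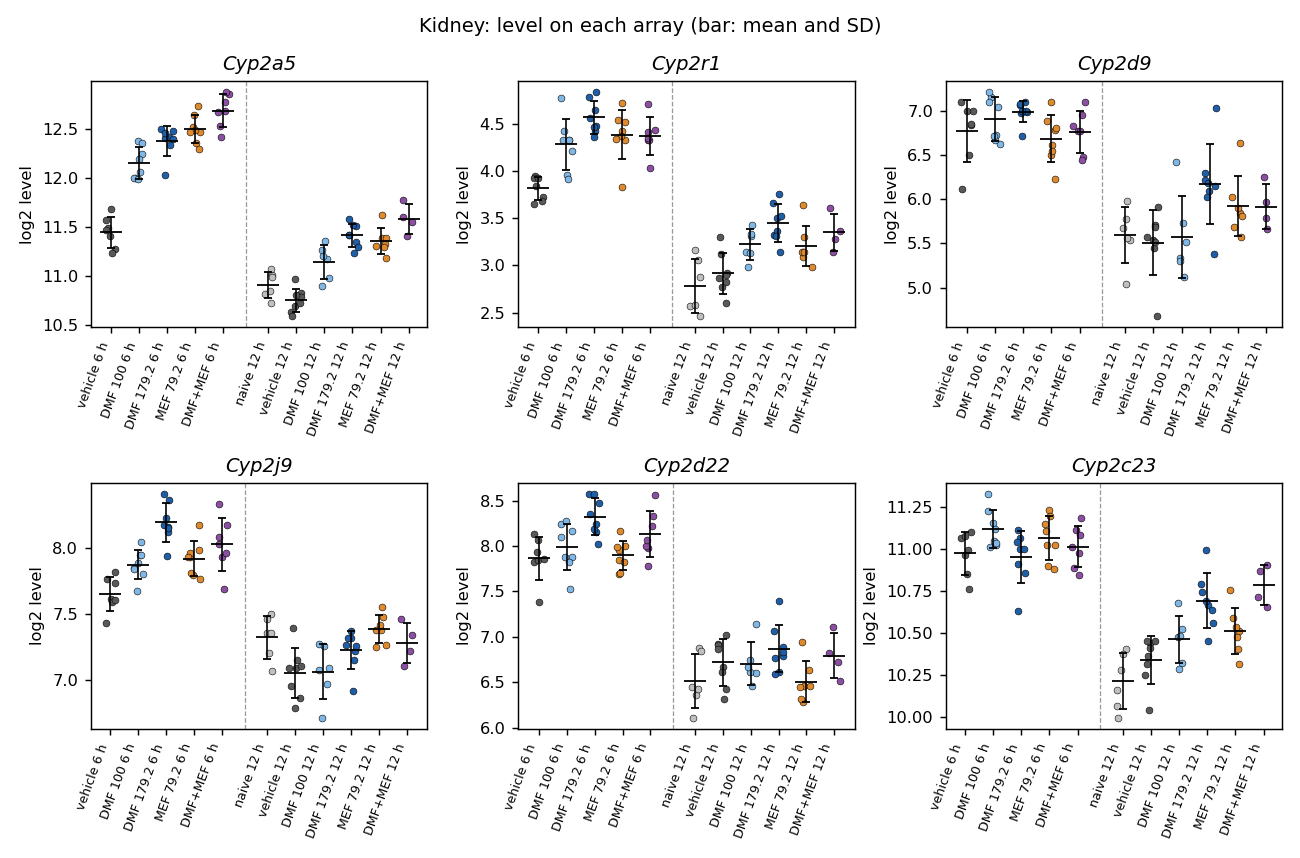
Log2 level of 6 Cyp2 genes on each kidney array by group (points; bars, mean and SD), with 6 h groups left and 12 h groups right of the dashed line. All Cyp2a5 points of the dosed groups at 6 h, from 11.98 upward, lie above the highest vehicle point at 11.69.

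Cyp2r1, the vitamin D 25-hydroxylase, gave a weak signal that rose at 6 h with all treatments. Its vehicle arrays at 6 h ran from 3.65 to 3.95 (median 3.84). With DMF 100 they ran from 3.91 to 4.77 (median 4.33), with DMF 179.2 from 4.36 to 4.83 (median 4.52), with MEF from 3.84 to 4.71 (median 4.39) and with DMF+MEF from 4.03 to 4.71 (median 4.34). DMF 179.2 and DMF+MEF did not overlap vehicle, and DMF 100 and MEF overlapped it at their low ends. The changes were 0.47 ± 0.11 (limma adjusted p = 0.00514), 0.75 ± 0.11 (1.9e-07), 0.57 ± 0.11 (0.000226) and 0.55 ± 0.11 (0.000247).

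Twelve-hour Cyp2r1 levels ran from 2.60 to 3.3 (median 2.89) with vehicle, 2.98 to 3.43 (median 3.23) with DMF 100, 3.14 to 3.75 (median 3.43) with DMF 179.2 and 2.99 to 3.64 (median 3.14) with MEF. The DMF+MEF arrays were at 3.28, 3.36, 3.61 and 3.14. All of these groups overlapped vehicle. Cyp2r1 was called with DMF 179.2 (0.53 ± 0.11, limma adjusted p = 0.000369) and DMF+MEF (0.43 ± 0.13, 0.0204), not with DMF 100 (0.31 ± 0.12, 0.216) or MEF (0.29 ± 0.11, 0.0569). With place as a covariate the DMF+MEF value was 0.32 (adjusted p = 0.202). Within shared places at 6 h the Cyp2r1 changes were 0.54 (adjusted p = 0.317), 0.76 (0.0663), 0.56 (0.00465) and 0.55 (0.198), in the order DMF 100, DMF 179.2, MEF and DMF+MEF. No dosed pair differed in Cyp2r1 past the threshold, the largest difference being 0.28 for DMF 179.2 over DMF 100 at 6 h (adjusted p = 0.082).

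The 4 Cyp2j genes went different ways. Cyp2j9 ran from 7.44 to 7.81 (median 7.62) on the 6 h vehicle arrays, 7.67 to 8.05 (median 7.87) with DMF 100 and 7.93 to 8.40 (median 8.16) with DMF 179.2. With MEF it ran from 7.76 to 8.17 (median 7.93) and with DMF+MEF from 7.69 to 8.33 (median 8.02). The DMF 179.2 arrays alone lay wholly above vehicle. Cyp2j9 rose with DMF 179.2 (0.54 ± 0.08, limma adjusted p = 1.96e-07), DMF+MEF (0.37 ± 0.08, 0.000591) and MEF (0.27 ± 0.08, 0.0287), while DMF 100 gave 0.22 ± 0.08 (0.112). At 12 h it was called with MEF alone (0.33 ± 0.08, 0.00156), on arrays from 7.25 to 7.55 (median 7.38) against 6.79 to 7.39 (median 7.09) with vehicle. Its changes with DMF 100, DMF 179.2 and DMF+MEF at 12 h were 0.01, 0.17 and 0.22. Within shared places the 6 h DMF+MEF call of Cyp2j9 was lost (0.41, adjusted p = 0.101), and those with DMF 179.2 (0.48, 0.0338) and MEF (0.26, 0.0359) were kept.

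Cyp2j6 ran from 7.69 to 7.93 (median 7.82) with vehicle at 6 h, 8.05 to 8.39 (median 8.21) with DMF 179.2 and 7.83 to 8.35 (median 8.22) with DMF+MEF. All DMF 179.2 arrays were above all vehicle arrays. Its changes were 0.40 ± 0.08 with DMF 179.2 (limma adjusted p = 3.32e-05) and 0.28 ± 0.08 with DMF+MEF (0.00838), against 0.20 ± 0.08 with DMF 100 (0.128) and 0.09 with MEF (0.657). A second, dimmer Cyp2j6 probe set (mean 6.72 against 7.50) did not move this way, at 0.05, -0.01, 0.13 and -0.06 for DMF 100, DMF 179.2, MEF and DMF+MEF. The DMF+MEF call was lost with place as a covariate (0.20, adjusted p = 0.0612), and with the mean of both probe sets (0.11, adjusted p = 0.368), and the DMF 179.2 call within shared places (0.31, adjusted p = 0.105). At 12 h the chosen Cyp2j6 probe set gave 0.04, -0.04, -0.17 and 0.02, none called.

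On its chosen probe set Cyp2j5, a P450 of the proximal tubule, did not move at 6 h. At 12 h this probe set was lower with every treatment but DMF 100. Its 6 h vehicle mean was 12.14 ± 0.05 (SD, n = 7), with changes of 0.00, 0.04, -0.01 and -0.04. At 12 h it ran from 11.32 to 11.64 (median 11.53) with vehicle, 11.34 to 11.62 (median 11.53) with DMF 100, 11.21 to 11.63 (median 11.33) with DMF 179.2 and 11.13 to 11.31 (median 11.17) with MEF. The DMF+MEF arrays were at 11.10, 11.32, 11.31 and 11.32. MEF and DMF+MEF arrays all lay below the lowest vehicle array, DMF+MEF by only 0.01. Cyp2j5 fell with MEF by 0.31 ± 0.05 (limma adjusted p = 2.26e-06), with DMF+MEF by 0.24 ± 0.06 (0.00225) and with DMF 179.2 by 0.14 ± 0.05 (0.0475). The naive arrays at 12 h were lower still, from 10.94 to 11.24 (median 11.04), and vehicle exceeded naive by 0.43 ± 0.05 (4.2e-11).

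A second Cyp2j5 probe set, with a mean of 9.95 against 11.73, was lower at both times. It gave -0.18, -0.48, -0.06 and -0.32 at 6 h and -0.17, -0.40, -0.19 and -0.64 at 12 h. With the mean of both probe sets, Cyp2j5 was also called lower at 6 h with DMF 179.2 (-0.22 ± 0.05, limma adjusted p = 0.000419) and DMF+MEF (-0.18, 0.0109). At 12 h both probe sets were lower with DMF 179.2, MEF and DMF+MEF and had opposite signs with DMF 100, and at 6 h they had opposite signs with DMF 179.2. When only the groups compared were fitted, the 12 h calls of Cyp2j5 with DMF 179.2 and DMF+MEF were lost (adjusted p = 0.244 and 0.0752). Cyp2j13, the remaining Cyp2j gene, had a kidney mean of 2.75 and was not called with any treatment.

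Cyp2c23, the main renal arachidonic acid epoxygenase, rose only late. At 6 h it ran from 10.76 to 11.10 (median 10.99) with vehicle and changed by 0.14, -0.02, 0.09 and 0.04, none called. Its 12 h range was 10.04 to 10.45 (median 10.39) with vehicle, 10.29 to 10.68 (median 10.48) with DMF 100, 10.45 to 10.99 (median 10.68) with DMF 179.2 and 10.31 to 10.75 (median 10.51) with MEF. The DMF+MEF arrays were at 10.65, 10.71, 10.87 and 10.90. DMF 179.2 and DMF+MEF arrays all lay above vehicle. Cyp2c23 rose with DMF 179.2 by 0.35 ± 0.07 (limma adjusted p = 0.000274) and with DMF+MEF by 0.44 ± 0.08 (0.000123), while MEF gave 0.17 ± 0.07 (0.0925) and DMF 100 0.12 (0.652). Within shared places the DMF 179.2 value was 0.26 (0.395). Its probe set is also of the design that related transcripts can share.

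Among the Cyp2d genes, relatives of the human debrisoquine hydroxylase, 2 were called, each with DMF 179.2 at 1 time. Cyp2d9, a male-specific steroid hydroxylase of mice, ran at 12 h from 4.68 to 5.91 (median 5.55) with vehicle and from 5.38 to 7.03 (median 6.17) with DMF 179.2. The ranges overlapped, and the change was 0.66 ± 0.16 (limma adjusted p = 0.00376), lost when only both groups were fitted (0.0813). Changes of Cyp2d9 with DMF 100, MEF and DMF+MEF at 12 h were 0.06, 0.42 and 0.41, none called. Cyp2d22 at 6 h ran from 7.39 to 8.13 (median 7.86) with vehicle and from 8.02 to 8.57 (median 8.30) with DMF 179.2. Its change of 0.46 ± 0.12 (0.00308) came to 0.33 with place as a covariate (0.0616) and to 0.27 with the mean of its probe sets (0.0653), the dimmer of which changed by 0.07. Cyp2d26 was not called, at -0.05, -0.02, -0.14 and -0.13 at 6 h and 0.06, 0.05, -0.09 and 0.03 at 12 h.

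Cyp2e1 spread widely in kidney and was not called. Its 6 h vehicle arrays ran from 10.54 to 11.36 (median 10.72), and its changes were -0.44 ± 0.16 with DMF 100 (limma adjusted p = 0.122), -0.27 with DMF 179.2 (0.246), -0.11 with MEF and 0.06 with DMF+MEF. At 12 h they were -0.04, -0.17, -0.22 and -0.08. All 6 Cyp3a genes had a kidney mean of at most 2.58, the highest being Cyp3a44, and none was called. One DMF+MEF array at 6 h, replicate 90, carried liver transcripts: albumin (Alb) was at 11.8 against 5.84 to 7.98 on the other arrays, and Cyp3a11, the major hepatic Cyp3a gene, at 6.25 against at most 2.23. Summed over 7 hepatocyte markers the level was 67.8 on that array and 40.5 to 47.4 on the others. Cyp2a5 on it was 12.87, beside 12.85 on the next array, and leaving it out kept all 28 kidney calls.

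The treatments' effects on 6 members differed between 6 and 12 h. For DMF 179.2, 3 members passed a direct test of the difference (7.14% of all genes), for MEF 2 (7.38%), for DMF+MEF 3 (2.8%), and for DMF 100 limma called 0 (0.404%), with 1 at an unadjusted p below 0.05. Between 6 and 12 h the change of Cyp2a5 fell by 0.44 ± 0.11 with MEF (limma adjusted p = 0.00509) and by 0.41 ± 0.12 with DMF+MEF (0.04). With DMF 179.2 the change of Cyp2j6 fell by 0.44 ± 0.11 (0.00435) and that of Cyp2j9 by 0.37 ± 0.11 (0.0291). The second Cyp2j6 probe set showed no rise to lose, at -0.01 at 6 h and -0.17 at 12 h. Cyp2c23 went the other way, its change growing by 0.37 ± 0.10 with DMF 179.2 (0.0113) and 0.40 ± 0.11 with DMF+MEF (0.0306). The Cyp2j5 change fell by 0.29 ± 0.07 with MEF (0.00323). Its second probe set moved less between the times, from -0.06 to -0.19. The other call, Cyp2b19 with DMF+MEF, came from 2 arrays just above the lowest deposited value.

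**Figure D4:**
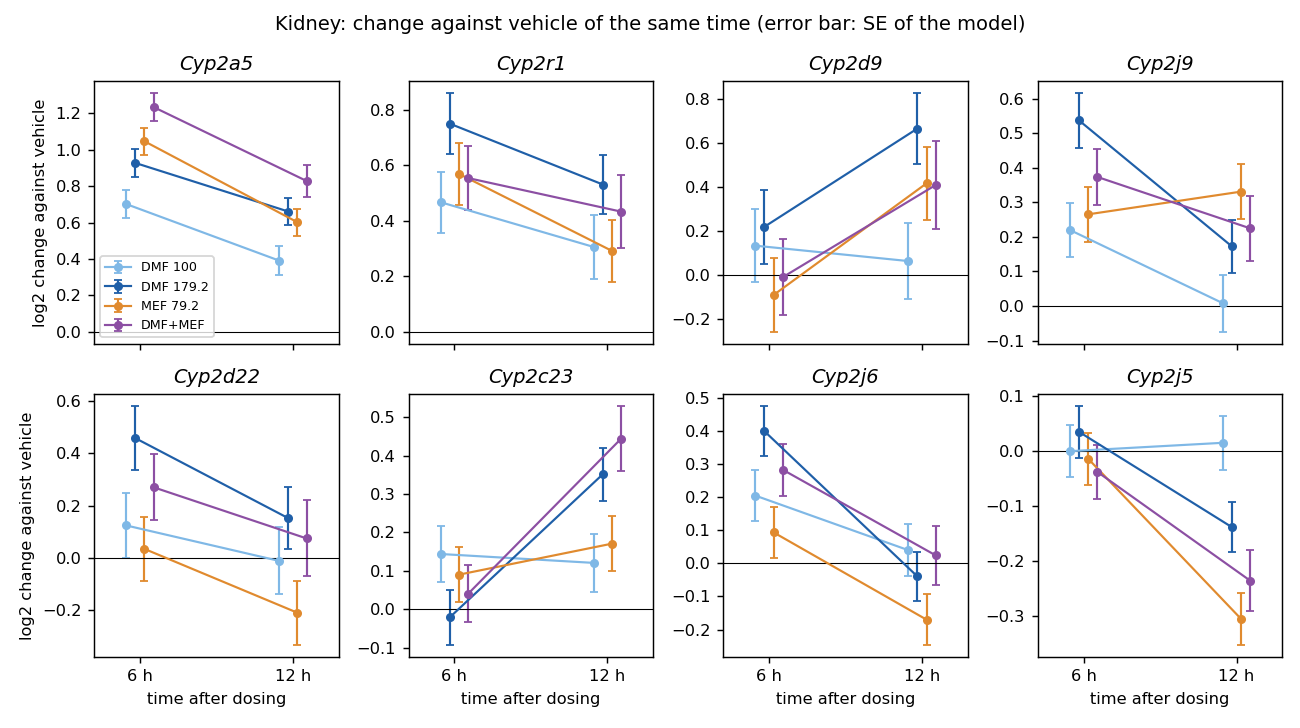
Log2 change against vehicle of the same time for 8 kidney Cyp2 genes at 6 and 12 h, 1 line per dosed group, with the SE of the model as error bars. Lines of Cyp2a5, Cyp2r1 and Cyp2j6 slope down from 6 to 12 h, and those of Cyp2c23 with DMF 179.2 and DMF+MEF slope up.

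Vehicle and untreated mice differed in kidney. Against naive mice at 12 h, 46% of all genes were called, 19.2% higher and 26.8% lower in vehicle, and 5 of 35 members were, Cyp2j5 higher and 4 members lower. The lower ones were Cyp2j9 (-0.27 ± 0.08, limma adjusted p = 0.00566), Cyp2j13 (-0.38, 9.04e-06), Cyp2c29 (-0.19, 0.000517) and Cyp2c38 (-0.12, 0.00082). Cyp2c29 and Cyp2c38 each sat at the lowest deposited value on 69 of 77 kidney arrays. The 12 h change of Cyp2j9 with MEF (0.33) and of Cyp2j5 with MEF (-0.31) had the opposite sign to their vehicle against naive differences. Both comparisons use the same vehicle arrays with opposite sign, so the design favours opposite signs. A return toward the naive level was not tested.

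Genes that serve P450 enzymes were read beside the members, from lists assembled with earlier results of these data known. In kidney, electron donors rose in 1, 4, 1 and 2 of 5 genes at 6 h with DMF 100, DMF 179.2, MEF and DMF+MEF, and in 1, 2, 0 and 1 at 12 h, and none fell. Cyb5a, which encodes cytochrome b5, rose at 6 h by 0.23 ± 0.04, 0.28 ± 0.04, 0.26 ± 0.04 and 0.34 ± 0.04 (limma adjusted p at most 5.25e-05). Of 7 heme synthesis genes, Alas1, the rate-limiting enzyme of heme synthesis, rose with every treatment: 0.70 ± 0.11, 1.31 ± 0.11, 0.97 ± 0.11 and 1.26 ± 0.11 at 6 h and 0.96, 1.34, 1.3 and 1.52 at 12 h. In all, 1, 1, 1 and 1 heme genes rose and 0, 1, 2 and 1 fell at 6 h, and 1, 2, 3 and 3 rose and 0, 0, 0 and 1 fell at 12 h.

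Of 13 measured receptors and regulators, 0, 2, 0 and 0 rose and 0, 1, 1 and 0 fell in kidney at 6 h, and 0 rose with any treatment at 12 h, where 1, 1, 2 and 0 fell. Nr1i2 rose with DMF 179.2 at 6 h (0.56 ± 0.10, limma adjusted p = 1.36e-05). Among 9 other targets of CAR and PXR, 4, 5, 4 and 4 rose at 6 h and 4, 4, 5 and 4 at 12 h, and 1 fell, with MEF at 12 h. Aldh1a7, an aldehyde dehydrogenase, rose at 6 h by 1.15 ± 0.14, 1.61 ± 0.14, 1.48 ± 0.14 and 1.85 ± 0.15. All 5 NRF2 genes of a comparison list rose with each treatment at 6 h and 3, 4, 3 and 4 did at 12 h. Some of the listed targets are known to answer to both kinds of regulator.

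The other P450 families were read the same way. Of 26 measured genes, 0, 4, 0 and 1 rose and 0, 4, 0 and 1 fell in kidney at 6 h, and at 12 h 0 rose and 1, 2, 5 and 2 fell. As many thus rose as fell at 6 h, while the genes named next were all picked from those that fell. Cyp27b1, which makes the active vitamin D hormone from the product of Cyp2r1, fell with DMF 179.2 by 1.07 ± 0.38 at 6 h (limma adjusted p = 0.0294) and by 1.2 ± 0.37 at 12 h (0.03). Cyp24a1, which breaks that hormone down, fell at 12 h with DMF 100 by 1.34 ± 0.31 (0.00946) and with MEF by 0.97 ± 0.30 (0.015). Cyp51, of cholesterol synthesis, fell at 12 h with DMF+MEF by 0.47 ± 0.07 (3.55e-07).

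Jejunum gave few calls. At 6 h limma called 1 member, higher, with DMF 100 (2.61% of all genes, 1.77% higher), 0 with DMF 179.2 (8.62%), 0 with MEF (1.19%) and 1, higher, with DMF+MEF (6.57%, 4.21% higher). At an unadjusted p below 0.05 the DMF 179.2 and MEF counts were 3 and 6. At 12 h it called 0 with DMF 100 (0.632%), where 4 had an unadjusted p below 0.05, and 1 with MEF, lower (0.813%, 0.263% lower). DMF 179.2 gave 3 higher and 1 lower (7.4% of all genes called, 4.74% higher and 2.67% lower), and DMF+MEF 1 of each (3.45%, 1.82% higher and 1.63% lower). Over all dosed groups 6 members were called (20.1% of all genes): Cyp2b10, Cyp2c23, Cyp3a13, Cyp3a44, Cyp2j13 and Cyp2d9. Of the intestinal Cyp3a genes, only Cyp3a13 was called higher, with DMF 179.2 at 12 h.

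A set of 4 jejunum arrays at 12 h stood apart, and no member was called at 12 h without them, for dosed groups against vehicle or for vehicle against naive. Vehicle replicates 5, 6 and 7 and DMF 100 replicate 15 had a mean level of Hoxb6 and Hoxb9, Hox genes of the distal gut, of 6.27 to 7.90 against 2.79 to 3.99 on the other 42 arrays. The regulator of proximal intestine Gata4 was at 3.23 to 6.47 on these 4 arrays and 7.85 to 9.65 on the others. The summed level of 4 proximal intestine markers, Gata4 among them, was 34 to 39.6 against 44.3 to 49.7. That of 4 distal markers was 37.1 to 40.8 against 12.7 to 30.4, but it includes Hoxb6 and Hoxb9, which set the arrays apart. Of the remaining distal markers, Slc10a2 was at 10.89 to 11.47 against 3.85 to 9.59. Fabp6, at 13.50 to 13.65 against 2.84 to 13.51, overlapped. On the 6 h arrays the mean Hox level was at most 3.19. Without the 4 arrays limma called 0 members in each 12 h group, with 1, 0, 2 and 1 at an unadjusted p below 0.05 for DMF 100, DMF 179.2, MEF and DMF+MEF, and 0 for vehicle against naive, with 3 at an unadjusted p below 0.05. The threshold that set them apart was chosen with the values known.

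Cyp2b10, the classical CAR target among P450 genes, split the jejunum arrays at 12 h. At 12 h it was at 5.46, 5.03 and 5.42 on the 3 vehicle arrays with Hox genes and at 10.47, 11.74, 9.02, 10.55 and 9.80 on the other 5. It ran from 6.46 to 11.49 (median 10.68) with DMF 100, 9.19 to 11.65 (median 10.60) with DMF 179.2, 9.06 to 11.68 (median 10.81) with MEF, 9.61 to 12.20 (median 10.81) with DMF+MEF and 10.16 to 12.10 (median 11.15) in naive mice. The dosed ranges overlapped those of the 5 other vehicle arrays. Over all arrays Cyp2b10 was called with DMF 179.2 (2.28 ± 0.59, limma adjusted p = 0.01) and DMF+MEF (2.36 ± 0.59, 0.0132), not with DMF 100 (1.70 ± 0.59, 0.161) or MEF (2.16 ± 0.61, 0.0682). Without the 4 arrays the changes were 0.34 ± 0.40, 0.40 ± 0.39, 0.28 ± 0.40 and 0.48 ± 0.39 in the order DMF 100, DMF 179.2, MEF and DMF+MEF, with adjusted p of at least 0.815.

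**Figure D5:**
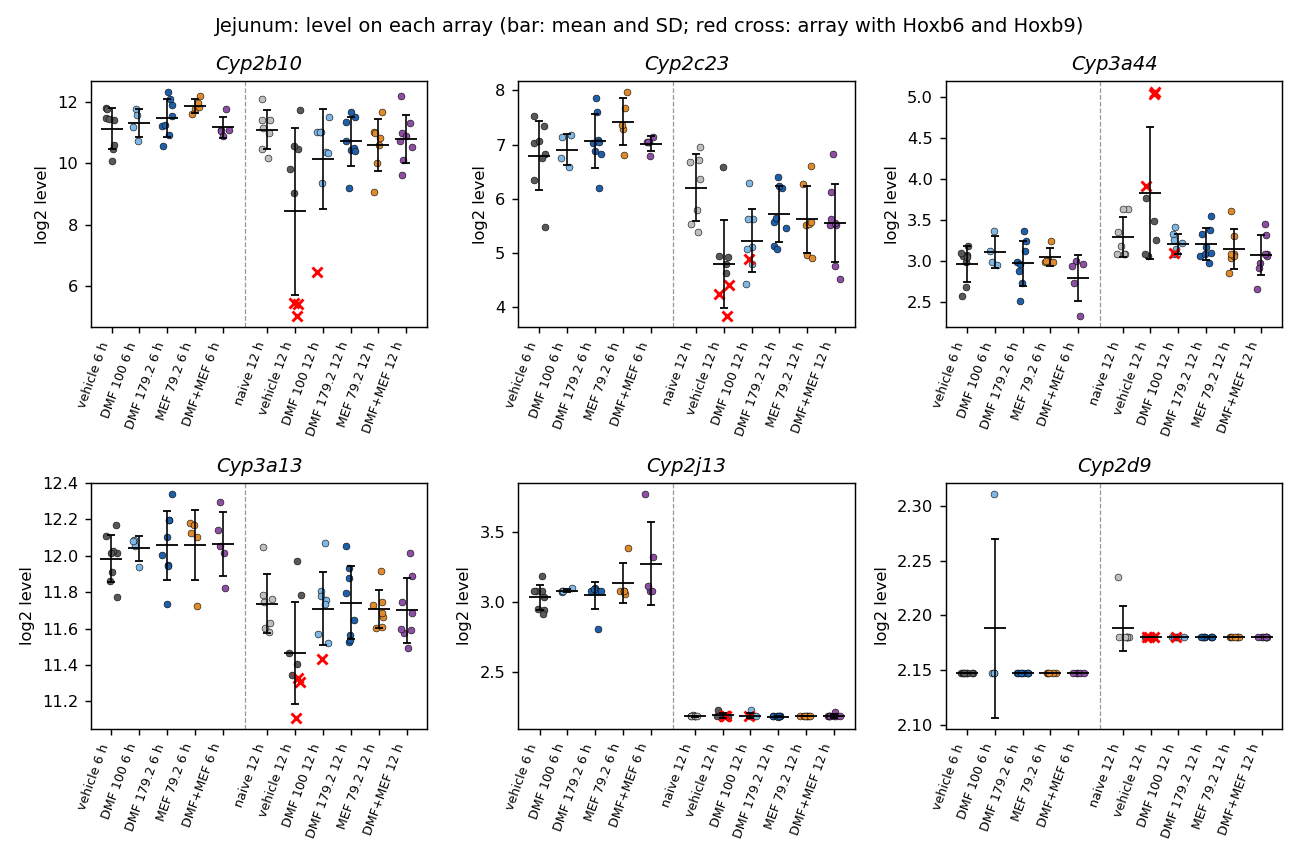
Log2 level of 6 Cyp genes on each jejunum array by group (points; bars, mean and SD), 6 h left and 12 h right of the dashed line, with red crosses for the 4 arrays with Hoxb6 and Hoxb9. For Cyp2b10 the 4 crosses, at 5.03 to 6.46, lie below all other arrays.

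At 6 h, where no array carried Hox genes, Cyp2b10 ran from 10.09 to 11.80 (median 11.43) with vehicle and 10.55 to 12.31 (median 11.40) with DMF 179.2. The DMF 100 arrays were at 10.7, 11.8, 11.2 and 11.6, the MEF arrays at 11.8, 11.6, 12.2, 11.8 and 12.0, and the DMF+MEF arrays at 11.1, 11.8, 11.1, 11.1 and 10.9. All groups overlapped vehicle. None was called, with changes of 0.19, 0.34, 0.73 ± 0.67 and 0.04. The CAR gene Nr1i3 with DMF 179.2 at 12 h was higher by 2.03 ± 0.40 (limma adjusted p = 0.000668) over all arrays and by 0.80 ± 0.31 (0.179) without the 4 arrays.

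Cyp2c23 at 12 h ran from 3.83 to 6.59 (median 4.72) with vehicle and 5.08 to 6.4 (median 5.61) with DMF 179.2. The change of 0.92 ± 0.30 (limma adjusted p = 0.0425) came to 0.54 ± 0.33 (0.531) without the 4 arrays. Cyp3a13, an intestinal Cyp3a gene, ran from 11.11 to 11.97 (median 11.37) with vehicle and 11.52 to 12.05 (median 11.72) with DMF 179.2, a change of 0.28 ± 0.09 (0.0484) that came to 0.15 ± 0.10 (0.584) without them. The groups overlapped for both genes.

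Cyp3a44, a near-identical relative of Cyp3a41, was lower in dosed groups at 12 h. Its vehicle arrays ran from 3.06 to 5.06 (median 3.63), of which the 3 with Hox genes were at 5.03, 5.06 and 3.92. With DMF 179.2 it ran from 2.98 to 3.55 (median 3.14), with MEF from 2.86 to 3.61 (median 3.09) and with DMF+MEF from 2.66 to 3.46 (median 3.08). Each dosed group overlapped vehicle. The changes were -0.63 ± 0.17 (limma adjusted p = 0.0129), -0.68 ± 0.17 (0.0379) and -0.76 ± 0.17 (0.004), and -0.12 (0.84), -0.18 (0.924) and -0.26 (0.532) without the 4 arrays.

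The bright Cyp3a11 and Cyp3a25 were not called in jejunum. Cyp3a11, whose human counterpart CYP3A4 is the chief drug-oxidizing P450, ran from 10.04 to 11.89 (median 10.96) with vehicle at 12 h. Its changes were 0.59 (limma adjusted p = 0.14), 0.58 ± 0.20 (0.0579), 0.43 and 0.49. It was at 10.04 to 10.56 on the 4 arrays with Hox genes and 10.59 to 12.33 on the others. Cyp3a25 changed by 0.20, 0.30, 0.37 and 0.04 at 6 h and 0.18, 0.31, 0.21 and 0.30 at 12 h. Cyp2c55, an arachidonic acid hydroxylase of the gut, changed by 0.38, 0.36, 0.71 ± 0.31 and -0.17 at 6 h and by 0.10, 0.03, 0.02 and -0.10 at 12 h.

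Cyp2j6 in jejunum changed at 6 h by 0.00, 0.45, 0.50 and 0.25 and at 12 h by 0.28, 0.64, 0.48 and 0.35, none called. Cyp2d22 came nearest to a call at 6 h with DMF 179.2 (0.54 ± 0.19, limma adjusted p = 0.0546), on arrays from 7.95 to 9.01 (median 8.37) against 7.34 to 8.14 (median 8.01) with vehicle. Cyp2e1 had the widest spread of the uncalled members, at 7.96 ± 1.46 (SD, n = 8) with vehicle at 12 h, and its changes of -1.04, -0.85, -1.60 ± 0.81 and -0.46 had adjusted p of at least 0.381.

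Calls at 6 h in jejunum were small. Cyp2j13 was called with DMF+MEF (0.24 ± 0.05, limma adjusted p = 0.00233), with arrays at 3.08, 3.11, 3.32, 3.08 and 3.77 against 2.92 to 3.18 (median 3.06) with vehicle. Cyp2d9 was called with DMF 100 (0.04 ± 0.01, 0.035) from 1 array at 2.31, while its other arrays sat at the lowest deposited value, 2.15. No jejunum pair of dosed groups called a member, beside 0.316%, 0.123% and 0.123% of all genes at 6 h and 0.152%, 0.0877% and 0.0526% at 12 h for DMF 179.2 against DMF 100, DMF+MEF against DMF 100 and DMF+MEF against DMF 179.2. No test of 12 h against 6 h did, beside 0.0175%, 3.15%, 0.0175% and 0.333% for DMF 100, DMF 179.2, MEF and DMF+MEF. At an unadjusted p below 0.05 limma gave 4, 3 and 2 members for the pairs at 6 h, 1, 0 and 0 at 12 h, and 3, 2, 2 and 3 for the time tests. Against naive mice, 3 members were lower in vehicle (5.44% of all genes called, 3.61% lower): Cyp2b10 (-2.66 ± 0.61, 0.00452; -0.78 ± 0.40, 0.517, without the 4 arrays), Cyp2c23 (-1.41 ± 0.31, 0.00327; -1.02 ± 0.34, 0.229, without them) and Cyp3a11 (-0.67 ± 0.21, 0.0378; -0.24 ± 0.20, 0.824, without them).

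Listed genes in jejunum were also fitted without the 4 arrays. That fit has fewer vehicle arrays, so a call lost there is not a test of a difference. At 12 h electron donors rose in 0, 1, 0 and 1 of 5, heme genes in 0, 2, 0 and 1 of 7 and other P450 families in 0, 2, 0 and 1 of 26 genes, and without the 4 arrays limma called 0 of each. At an unadjusted p below 0.05 there were then 0 electron donors with any treatment, at most 1 heme gene and at most 2 other P450 genes in any group. CAR and PXR targets outside the P450 families rose in 3, 6, 1 and 5 of 9, and in 1, 4, 1 and 4 without them. The glutathione transferase gene Gstm1 rose with DMF 179.2 by 2.65 ± 0.26 (limma adjusted p = 1.01e-11), and by 2.47 ± 0.30 (2.85e-08) without them. Aldh1a7 rose by 1.02 ± 0.12 (1.1e-09), and by 0.95 ± 0.13 (1.55e-06) without them.

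In the other 5 organs calls of members were few. Mesenteric lymph node (17.1% of all genes called in any dosed group) and whole blood (0.544%) had 0 by limma over 280 tests each, with 12 and 10 at an unadjusted p below 0.05. Brain had 2 (9.61%), both with DMF 179.2 at 6 h (7.2%). Cyp2d22 in brain ran from 7.83 to 8.36 (median 8.11) with vehicle and 8.34 to 8.76 (median 8.46) with DMF 179.2, a change of 0.40 ± 0.10 (limma adjusted p = 0.00973). Cyp2j6 in brain ran from 6.91 to 7.40 (median 7.09) and 7.22 to 7.91 (median 7.44), a change of 0.38 ± 0.08 (0.00389). The groups overlapped slightly for both genes, and both calls were lost with place as a covariate. Both genes were also called with DMF 179.2 at 6 h in kidney, where 25% of all genes were called. Their second kidney probe sets changed there by 0.07 (Cyp2d22) and -0.01 (Cyp2j6).

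Inguinal lymph node had 1 call (13.8% in any dosed group), Cyp2d22 with DMF 179.2 at 12 h (12.3% of all genes called; 0.82 ± 0.25, limma adjusted p = 0.0233). The 4 vehicle arrays spread from 4.22 to 6.28 (median 5.76) and the DMF 179.2 arrays from 6.03 to 6.75 (median 6.26), and the call was lost without vehicle replicate 1. Spleen had 7 calls (28.8%), all of dim genes. With DMF+MEF at 6 h Cyp2a5 (0.93, limma adjusted p = 0.0286), Cyp2c23 (0.90, 0.0387) and Cyp2c50 (0.67, 0.0434) were called from 1 of 4 arrays, replicate 85, where Cyp2a5 was at 5.91 and the median at 2.16. On that array albumin was at 11.3 against 3.11 to 4.89 elsewhere, and the 7 hepatocyte markers summed to 68.3 against 21.6 to 30.5. Without arrays with high Alb 2 spleen calls were left.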

How the data were processed

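Total RNA of whole organs was hybridised to Affymetrix HT MG-430 PM arrays. The authors deposited log2 values for 45141 probe sets, and the submitters' processing notes name RMA, GCRMA, R 2.11.1 and limma 3.4.5 with no role or order. Each organ and time has its own lowest value, between 2.12 and 2.25, at which 18.5% to 25.4% of its values sit, so normalization was taken as done apart for each and changes of dim genes are understated. Arrays carry no read depth, and the number of arrays limits the precision.

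Probe sets with 1 gene in the platform annotation (28898; 551 had several genes and 15588 none) gave 17097 genes, of which 16937 matched RefSeq symbols. Kidney and jejunum are the organs treated first. Limma 3.58.1 in R 4.3.3 was fitted per organ with 1 mean per group over all arrays, and p-values were adjusted by Benjamini-Hochberg over all genes within a comparison. The rule for named genes took every member called in a dosed group of kidney or jejunum, up to 3 uncalled members per subfamily with the highest mean, up to 3 called members with the largest change in other organs, and up to 4 called genes of a list per comparison. The members and the gene lists were chosen with earlier results of these data known. Alternatives were quantile normalization, dim genes left out, trended robust variance, only the groups compared and the mean of all probe sets. Others were the place of the animal number in runs of 12, and arrays without liver or distal gut transcripts. Single arrays were left out in turn only in groups of at most 5 arrays. Kidney DMF 179.2 replicate 24 at 12 h was left out too. Arrays within shared spans of 4 places were added after seeing the data. On simulated data for 17097 genes, 82% of genes changed 1.25-fold and 98% changed 1.5-fold were called at the sizes of the kidney 6 h DMF 100 comparison. At the sizes of the jejunum 6 h DMF 100 comparison the shares were 44% and 86%. The changed genes were drawn only from those above the organ's median level, with independent normal noise. These shares therefore do not cover members below the median.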

Additional observations from a re-analysis of the deposited data

Results flagged for a closer look

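Single arrays stood apart in 15 of 115 combinations of a gene and a group of 4 to 10 arrays, tested by Dixon's criterion. By chance it marks about 1 in 20. The combinations share arrays, so they are not independent. In kidney they were Cyp2a5 at 12.03 (DMF 179.2 at 6 h, replicate 68), Cyp2r1 at 3.84 (MEF at 6 h, replicate 75) and Cyp2d22 at 7.39 (vehicle at 6 h, replicate 54). Cyp2d9 in kidney had 3 such arrays, at 6.63 (MEF at 12 h, replicate 29), 4.68 (vehicle at 12 h, replicate 3) and 6.72 (DMF 179.2 at 6 h, replicate 70).

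In jejunum Cyp2b10 was at 6.46 on DMF 100 replicate 15 at 12 h, which is an array with distal gut Hox genes. DMF+MEF replicate 84 at 6 h stood apart for 2 genes, with Cyp2b10 at 11.76, the highest of its group, and Cyp2c23 at 6.79, the lowest. Cyp2c23 was high on vehicle replicate 2 at 12 h, at 6.59. Among MEF arrays at 6 h, Cyp3a44 was at 3.25 on replicate 78, Cyp3a13 at 11.72 on replicate 79 and Cyp2j13 at 3.39 on replicate 81. Cyp2j13 was at 2.80 on DMF 179.2 replicate 72 at 6 h, and Cyp2d9 at 2.31 on DMF 100 replicate 59 at 6 h.

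Effects that differed between 12 and 6 h by limma's direct test, on the chosen probe sets, were all in kidney. With DMF 179.2 the difference was 0.37 for Cyp2c23, -0.44 for Cyp2j6 and -0.37 for Cyp2j9. With MEF it was -0.44 for Cyp2a5 and -0.29 for Cyp2j5. With DMF+MEF it was -0.41 for Cyp2a5, 0.40 for Cyp2c23 and 0.02 for Cyp2b19, which was at the lowest deposited value on 74 of 77 kidney arrays.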

How the results depend on the processing

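No paired analysis was possible because the groups compared within an organ share no animal numbers. Of 328 values of 37 gene calls under the alternatives, 266 kept direction and call, 61 kept direction and lost the call, and Cyp2d9 in jejunum with DMF 100 at 6 h reversed to -0.0 without replicate 59 (its largest value was 0.0546, without replicate 60). The cause of the changes below was not tested, except that shared places and fits of only the groups compared use fewer arrays.

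Within shared places the number of members called was 0 for kidney DMF 100 at 6 h (2 in the fit of all arrays), 1 for DMF 179.2 at 6 h (5), 1 for DMF+MEF at 6 h (4), 0 for DMF 100 at 12 h (1) and 0 for DMF 179.2 at 12 h (5). It was 0 for jejunum DMF 179.2 (4), MEF (1) and DMF+MEF (2) at 12 h, and 0 in brain (2). With only the groups compared, kidney at 12 h gave 0 for DMF 100, 3 for DMF 179.2 and 2 for DMF+MEF (5), and 0 for the dosed pairs. Jejunum then gave 0 for DMF 100 (1) and DMF+MEF (1) at 6 h and 0 for DMF 179.2, MEF and DMF+MEF at 12 h, and inguinal lymph node (1) and spleen (7) gave 0.

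With dim genes left out, counts were 1 for kidney DMF 100 at 6 h, 3 for kidney DMF+MEF at 12 h, 0 for jejunum DMF 100 at 6 h, 1 for jejunum DMF 179.2 at 6 h (0), 0 for jejunum DMF+MEF at 6 h and 1 for jejunum DMF+MEF at 12 h. The mean of all probe sets gave 1 for jejunum DMF 179.2 at 6 h. Trended robust variance gave 2 for jejunum DMF 100 at 6 h, 1 for the jejunum dosed pairs at 6 h (0), 1 for mesenteric lymph node (0) and 3 for inguinal lymph node. Place as a covariate gave 1 for jejunum DMF 100 at 12 h (0), 4 for the kidney dosed pairs at 6 h (2), 1 for the jejunum dosed pairs at 6 h, 1 for the jejunum time tests (0), and 0 for inguinal lymph node, spleen and brain. Quantile normalization gave 2 for jejunum DMF 179.2 at 12 h.

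Without the arrays with distal gut Hox genes, jejunum at 12 h gave 0 for DMF 179.2, MEF and DMF+MEF, and DMF 179.2 at 6 h gave 1. Without arrays with high Alb, jejunum at 12 h gave 0 for DMF 179.2 and MEF and 1 for DMF+MEF, and spleen gave 2. The jejunum arrays left out there were DMF+MEF replicate 38 and vehicle replicate 6. Vehicle replicate 6 is also among the arrays with distal gut Hox genes, so these settings overlap.

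Arrays were left out in turn only in groups of at most 5 arrays, and no kidney group at 6 h or jejunum group at 12 h was that small. Leaving out single arrays gave 1 to 2 calls for jejunum DMF 100 at 6 h (2 without DMF 100 replicate 60), 0 to 2 for inguinal lymph node (0 without vehicle replicate 1, 2 without vehicle replicate 7 or 8) and 2 to 12 for spleen (2 without DMF+MEF replicate 85, 12 without replicate 83 or 84, 11 without replicate 86). It gave 2 to 5 for the kidney dosed pairs at 12 h (4 with all arrays; 2 without DMF+MEF replicate 35), 0 to 1 for the jejunum dosed pairs at 6 h (1 without DMF 100 replicate 60, 61 or 64 or DMF+MEF replicate 83, 84 or 86) and 0 to 1 for the jejunum time tests (1 without DMF+MEF replicate 83 at 6 h). Shared places could not be fitted for kidney DMF+MEF at 12 h, jejunum DMF 100 and DMF+MEF at 6 h, inguinal lymph node DMF 100 and DMF+MEF at 12 h, and spleen DMF+MEF at either time.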
